A study of Mus musculus with 19 samples.

Results

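Caveola genes were read in epididymal white adipose tissue (eWAT) by the symbols of the deposited expression table: the caveolins Cav1, Cav2 and Cav3, the ATPase Ehd2, and the cavins Ptrf (now Cavin1), Sdpr (Cavin2) and Prkcdbp (Cavin3). Each of the 7 names was found once among 24238 genes. Levels are in FPKM, which scales reads by transcript length and by the mapped reads of the library, so that they can be compared between genes as well as between mice. Of these genes, 6 passed the filter on low values (in some diet group the mean and the FPKM of 4 mice or more had to exceed 8), as did 8336 of 24237 genes, and Cav3 did not.

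Caveolae are flask-shaped pits of the plasma membrane, and adipocytes and endothelial cells are among the cells that carry most of them. Caveolins insert into the inner leaflet of the membrane, cavins form a coat around the pit from the cytosol, and Ehd2 sits at the neck and holds the pit at the cell surface. In fat cells, caveolae make up much of the surface membrane and flatten when the membrane is stretched, and loss of Cav1 or Ptrf in mice and people leads to loss of adipose tissue.

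The study asked how low Mg2+ bears on lipid and energy metabolism in mice on low- and high-fat diets. Male C57Bl6/J mice, 9 to 10 weeks old at the start, were fed for 17 weeks, and RNA from eWAT was sequenced with 1 library per mouse. The 4 groups were NormMg-LFD (0.21% wt/wt MgO, 10% of energy from fat; n = 4, replicates 2 to 5), LowMg-LFD (0.03% MgO, 10%; n = 5), NormMg-HFD (0.21% MgO, 60%; n = 5) and LowMg-HFD (0.03% MgO, 60%; n = 5). The labels give each library as a separate mouse.

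Depth was even, at 12986441 to 13027028 reads per mouse, of which 86.12% to 90.41% mapped. The tissue carried its own markers, with mean Fabp4 levels of 8070 to 10251 FPKM and mean Adipoq levels of 1263 to 2340 FPKM over the groups. Some libraries stood apart by RNA of neighbouring tissues: 17 exocrine pancreas genes summed to 2025 FPKM in NormMg-LFD replicate 3 and to 13.4 to 62.0 FPKM in the others, and 9 epididymis genes summed to 129.7 FPKM in LowMg-LFD replicate 4, to 29.3 FPKM in LowMg-HFD replicate 4 and to at most 4.90 FPKM in the others. A LowMg-HFD mouse was left out by the study for pancreatic tissue, and the labels do not say which. Pancreas genes singled out no LowMg-HFD mouse here, so all 19 mice were kept. Calls of the caveola genes that turn on these libraries are given with and without them. The lists of other genes were read only with all 19 mice.

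The promoters of 4 of the genes are shown because Cav1, Cav2 and Ehd2 moved together between mice and Ptrf did not follow them. The sequences are from RefSeq (GRCm38.p6) and run from 250 bases before to 50 bases after the start listed there. They were found for 6 of the 7 genes, all but Prkcdbp. Capitals mark the letters searched on both strands: GGGCGG (the GC box), CCAAT (the CCAAT box), TATAAA (the TATA box) and AGGTCA (a site that nuclear receptors bind).
Cav1, chr6:17306085-17306384, plus strand: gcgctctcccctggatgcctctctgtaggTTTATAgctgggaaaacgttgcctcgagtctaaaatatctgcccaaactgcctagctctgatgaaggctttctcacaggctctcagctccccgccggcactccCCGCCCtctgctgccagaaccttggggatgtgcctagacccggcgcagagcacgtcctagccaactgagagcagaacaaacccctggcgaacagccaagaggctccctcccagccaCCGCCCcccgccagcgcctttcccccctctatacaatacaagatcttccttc
Cav2, chr6:17280935-17281234, plus strand: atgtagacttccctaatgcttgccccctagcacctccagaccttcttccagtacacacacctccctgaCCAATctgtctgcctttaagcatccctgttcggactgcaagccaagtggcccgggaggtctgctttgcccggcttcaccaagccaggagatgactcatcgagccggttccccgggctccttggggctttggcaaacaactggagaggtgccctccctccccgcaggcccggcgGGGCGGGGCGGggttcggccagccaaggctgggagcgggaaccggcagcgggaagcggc
Ehd2, chr7:15967486-15967785, minus strand: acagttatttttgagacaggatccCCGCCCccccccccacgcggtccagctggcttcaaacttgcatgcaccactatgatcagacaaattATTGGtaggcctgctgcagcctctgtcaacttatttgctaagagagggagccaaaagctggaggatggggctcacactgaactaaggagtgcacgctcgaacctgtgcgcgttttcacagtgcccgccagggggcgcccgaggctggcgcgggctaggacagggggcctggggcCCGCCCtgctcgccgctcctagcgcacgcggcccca
Ptrf, chr11:100970568-100970867, minus strand: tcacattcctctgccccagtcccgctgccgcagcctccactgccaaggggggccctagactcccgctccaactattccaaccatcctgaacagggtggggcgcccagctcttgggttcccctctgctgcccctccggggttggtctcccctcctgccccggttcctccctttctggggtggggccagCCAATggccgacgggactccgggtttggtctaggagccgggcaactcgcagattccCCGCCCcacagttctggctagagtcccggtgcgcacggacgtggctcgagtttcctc

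Cav1, Cav2 and Ehd2 each held 2 GC boxes in this window (those of Cav2 share a base), Ptrf held 1, and 35.7% of all 32851 promoters of the table held at least 1. A CCAAT box stood in the windows of Cav2, Ehd2 and Ptrf, 1 in each, against 37.4% of all promoters, and the window of Cav1 held none. The TATA box letters were found once, on the minus strand of the Cav1 window, 221 bases before the start, and 13.6% of all promoters hold them. The nuclear receptor letters were found in none of the 4 windows, against 16.3% of all promoters, which says that these letters are not in these bases and nothing of the factors. GC content was 59.3% for Cav1, 64.3% for Cav2, 62.0% for Ehd2 and 66.7% for Ptrf, and the median over all promoters was 52.7%. The windows of Cav3 and Sdpr, which are not printed, held 0 GC boxes, at a GC content of 58.0% and 43.3%. That of Cav3 held the nuclear receptor letters once, and that of Sdpr held 1 CCAAT box. The start used for Ehd2 lay 32 bases, and that for Ptrf 270 bases, inside the gene from its start in the GENCODE annotation. The whole Ptrf window thus lay inside the annotated gene. Of 2 windows listed for Cav1 and for Ptrf, the one nearest to the GENCODE start was used.

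In the GENCODE annotation (GRCm38), Cav2 (chr6:17281185-17289115) and Cav1 (chr6:17306335-17341452) lie side by side on the plus strand of chromosome 6, with 17220 bases from the end of the first to the start of the second. Cav3 lies on the same chromosome, far away (chr6:112459505-112472872). Ehd2 (chr7:15946958-15967567) and Prkcdbp (chr7:105480083-105482300) are on the minus strand of chromosome 7, Ptrf (chr11:100956733-100970887) is on the minus strand of chromosome 11 and Sdpr (chr1:51289126-51302960) on the plus strand of chromosome 1. FPKM were deposited per gene and cover the exons of its transcripts.

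Caveola genes were among the most abundant transcripts of eWAT. Over the 19 mice, the level of Cav1, the main structural protein of the pits, ranged from 843 to 1519 FPKM (median 1221) and its mean was the 35th highest of 24237 genes. Ptrf, the cavin without which pits do not form, followed at 302 to 617 FPKM (median 471), and Cav2, which assembles with Cav1 into oligomers, at 229 to 377 FPKM (median 303). Ehd2 ranged from 188 to 325 FPKM (median 263), Sdpr, a cavin that bends membranes, from 150.1 to 269 FPKM (median 189) and Prkcdbp, a cavin that binds protein kinase C delta, from 96.6 to 199.4 FPKM (median 159.8).

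This order held within nearly every mouse: Cav1 exceeded Ptrf, and Ptrf exceeded Cav2, in 19 of 19 mice. Neighbours further down were closer, since Cav2 exceeded Ehd2 in 18 of 19 mice with a median ratio of 1.16, and Sdpr exceeded Prkcdbp in 17 of 19 mice with a median ratio of 1.28. Ptrf came as close to Cav2 as a ratio of 1.00 in 1 mouse. Cav3, the caveolin of muscle, was at 0 in most mice and reached at most 0.59 FPKM, so that no comparison of diets was made on it. In the order of replicates, Cav3 was at 0, 0, 0.31 and 0 FPKM in NormMg-LFD mice and at 0, 0, 0, 0.46 and 0 FPKM in LowMg-LFD mice. It was at 0, 0.15, 0.59, 0.15 and 0.15 FPKM in NormMg-HFD mice and at 0, 0.15, 0, 0.15 and 0 FPKM in LowMg-HFD mice, and these levels do not separate the groups.

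**Figure D1:**
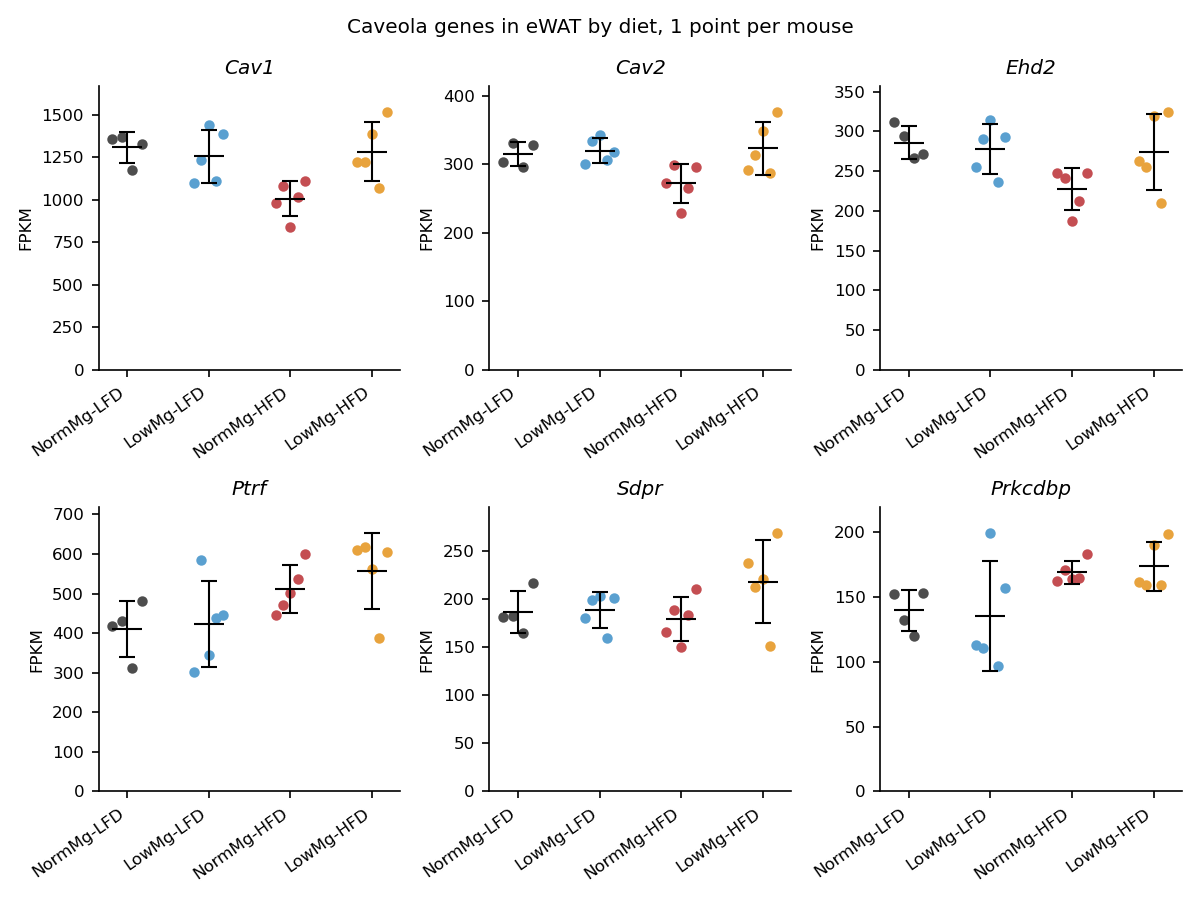
Levels of the 6 caveola genes that were tested, in FPKM on axes that start at 0, by diet group; each point is 1 mouse, and the bars give the mean and SD of 4 or 5 mice. For Cav1 and Ehd2, NormMg-HFD mice, at 843 to 1109 and 188 to 248 FPKM, lie below all NormMg-LFD mice and overlap the other groups, while the means of Ptrf and Prkcdbp are higher on both HFD than on both LFD, differences that did not pass the test.

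The first comparison asks what the HFD did at normal Mg2+. Of the 6 genes tested, Cav1 and Ehd2 were lower in NormMg-HFD than in NormMg-LFD mice and none was higher, while 12.8% of all genes tested were lower and 37.4% differed in either direction, so that 2 of 6 is close to the share of all genes that differed. P values are from limma on log2(FPKM + 1), adjusted by the Benjamini-Hochberg method over 8336 genes with a threshold of 0.05, and fold changes are on that scale. Since RNA of whole tissue was sequenced, fewer cells of a type and less RNA per cell cannot be told apart.

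Cav1 was at 1360.5, 1371, 1176 and 1328 FPKM in NormMg-LFD mice and at 984, 1085, 843, 1019.9 and 1109 FPKM in NormMg-HFD mice. Each NormMg-HFD mouse lay below each NormMg-LFD mouse, with means of 1008 ± 105 (SD, n = 5) and 1309 ± 90.8 (SD, n = 4). The log2 fold change was -0.38 (SE 0.11, limma adjusted p = 0.0132). It remained past the threshold with any 1 mouse left out, at -0.43 to -0.32 (adjusted p = 0.0094 to 0.0412), and did not when all 24237 genes were tested (adjusted p = 0.0577).

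Ehd2 was at 311, 294, 266 and 272 FPKM in NormMg-LFD mice and at 248, 241, 188, 213 and 247 FPKM in NormMg-HFD mice. Again the groups did not overlap, with means of 286 ± 20.9 (SD, n = 4) and 228 ± 26.4 (SD, n = 5) and a log2 fold change of -0.33 (SE 0.12, limma adjusted p = 0.0402). This call was close to the threshold and was lost without NormMg-LFD replicate 2 (adjusted p = 0.112), 3 (0.0901) or 5 (0.0544), without NormMg-HFD replicate 3 (0.11) or 4 (0.0809), and with all genes tested (0.0862). Without the 3 mice with RNA of other tissues, Cav1 was at -0.36 (adjusted p = 0.0301) and Ehd2 at -0.32 (adjusted p = 0.0444).

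Cav2 was at 303, 332, 296 and 328 FPKM in NormMg-LFD mice and at 272, 299, 229, 265 and 296 FPKM in NormMg-HFD mice, so that the groups touched. Its log2 fold change of -0.21 (SE 0.09, limma adjusted p = 0.0838, 95% interval -0.41 to -0.02) missed the threshold. Cav2 passed on other scales, with each mouse centred on its median (-0.31, adjusted p = 0.0301) or with quantile normalization (-0.42, adjusted p = 0.00313).

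None of the cavins passed in this comparison. Ptrf was at 417, 430.0, 313 and 482 FPKM in NormMg-LFD mice and at 445, 471, 502, 537 and 599.6 FPKM in NormMg-HFD mice, with overlap and a log2 fold change of 0.33 (SE 0.18, limma adjusted p = 0.157). Prkcdbp was at 153, 132, 120.3 and 153 FPKM in NormMg-LFD mice and at 163, 171, 164, 165 and 183 FPKM in NormMg-HFD mice. The Prkcdbp groups did not overlap, and the log2 fold change of 0.28 (SE 0.16, limma adjusted p = 0.172) missed the threshold in the fit of all 4 groups, while it passed in the fit of these groups alone (adjusted p = 0.0295). Sdpr was at 182, 182, 165 and 217 FPKM against 166, 189, 150.1, 184 and 210.4 FPKM, with wide overlap and a log2 fold change of -0.05 (SE 0.14, limma adjusted p = 0.787).

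Scaling bears on this comparison, because the median log2 fold change of all genes was 0.07 as deposited and moved by -0.10 when mice were centred on their medians and by -0.12 with quantile normalization. Of the 3114 genes called as deposited, 65.8% were higher on the HFD, and of those called after centring or quantile normalization 50.1% and 46.9%. The Cav1 difference went from -0.38 to -0.48 with centring, which is the shift of all genes, and to -0.74 with quantile normalization, and the Ehd2 difference from -0.33 to -0.44 and -0.54. Sdpr went from -0.05 to -0.16 and -0.26, Ptrf from 0.33 to 0.22 and 0.16, and Prkcdbp from 0.28 to 0.18 and 0.09. None of these cavin differences passed, while Cav1 and Ehd2 passed on both scales.

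The second comparison asks what low Mg2+ did on the HFD, and it shares the NormMg-HFD mice with the first. Of the 6 genes, Cav1 was higher at low Mg2+ and none was lower in LowMg-HFD against NormMg-HFD mice, while 5.58% of all genes tested were higher and 18.5% differed in either direction, which is close to 1 of 6. Without NormMg-HFD replicate 3, the calls over all genes went from 1542 to 921. Cav1 was at 1224, 1221, 1390.2, 1070.3 and 1519 FPKM in LowMg-HFD mice, against 984, 1085, 843, 1019.9 and 1109 FPKM in NormMg-HFD mice. LowMg-HFD replicate 4 alone lay within the NormMg-HFD range, and the means were 1285 ± 173 and 1008 ± 105 (SD, n = 5 each). The log2 fold change was 0.35 (SE 0.11, limma adjusted p = 0.0324).

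This call rested on single mice. It was lost without NormMg-HFD replicate 1 (adjusted p = 0.0662), 3 (0.0997) or 4 (0.0568), without LowMg-HFD replicate 3 (0.0822) or 5 (0.0956), in the fit of these groups alone (0.0504) and with all genes tested (0.125), at log2 fold changes of 0.28 to 0.35. Without LowMg-HFD replicate 4, one of the mice with epididymis RNA, Cav1 was at 0.41 (adjusted p = 0.016), and Cav2 at 0.29 (0.0389), Ehd2 at 0.35 (0.0341) and Sdpr at 0.39 (0.021) passed as well. Without all 3 mice with RNA of other tissues, left out together after seeing the data, 3 genes passed: Cav1 at 0.41 (adjusted p = 0.0207), Ehd2 at 0.35 (0.0366) and Sdpr at 0.39 (0.0226).

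Over all mice, Cav2 was at 292, 313, 349, 288 and 377 FPKM in LowMg-HFD mice, where NormMg-HFD mice were at 229 to 299 FPKM. LowMg-HFD replicates 1 and 4 lay within that range, and the log2 fold change was 0.25 (SE 0.09, limma adjusted p = 0.0601). Cav2 passed after centring (0.30, adjusted p = 0.049) and without NormMg-HFD replicate 2 (adjusted p = 0.0466) or 5 (0.0452) or LowMg-HFD replicate 1 (0.0445). Ehd2 was at 263, 255, 319.6, 209.8 and 325 FPKM against 188 to 248 FPKM, again with replicate 4 inside the range, at a log2 fold change of 0.26 (SE 0.12, limma adjusted p = 0.130).

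Among the cavins, Sdpr was at 238, 213, 221, 151 and 269 FPKM in LowMg-HFD mice, against 150.1 to 210.4 FPKM in NormMg-HFD mice, with replicate 4 close to the bottom of that range and a log2 fold change of 0.26 (SE 0.13, limma adjusted p = 0.166). Ptrf was at 609.6, 617, 561, 389 and 604 FPKM, with the other four mice above most NormMg-HFD mice and replicate 4 below all of them (log2 fold change 0.11, SE 0.17, adjusted p = 0.693). Without replicate 4, Ptrf was at 0.23 (adjusted p = 0.326). Prkcdbp was at 162, 159.6, 190.4, 159.8 and 198 FPKM against 163 to 183 FPKM, with a log2 fold change of 0.04 (SE 0.15, adjusted p = 0.892, 95% interval -0.27 to 0.34). Of the genes called in this comparison, 30.2% were higher as deposited, 43.3% after centring and 47.2% with quantile normalization, and with the last Cav1 was at 0.54, Cav2 at 0.38, Ehd2 at 0.37 and Sdpr at 0.38, all past the threshold.

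On the LFD, low Mg2+ moved none of the caveola genes past the threshold, and 0% of all genes passed it in limma, with 547 genes at an unadjusted p under 0.05. LowMg-LFD mice were at 1102, 1233, 1441, 1114 and 1388 FPKM of Cav1, at 301, 334, 342, 306 and 319 FPKM of Cav2 and at 255, 290.4, 315, 237 and 293 FPKM of Ehd2. Ptrf was at 302, 584, 345, 439 and 447 FPKM, Sdpr at 181, 199.5, 203, 160.2 and 201 FPKM and Prkcdbp at 113, 111, 199.4, 96.6 and 157 FPKM. These ranges enclosed or overlapped those of NormMg-LFD mice for each gene, and log2 fold changes lay between -0.09 for Prkcdbp and 0.02 for Cav2. The 95% intervals were -0.31 to 0.17 for Cav1, -0.30 to 0.21 for Ehd2 and -0.34 to 0.39 for Ptrf.

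At low Mg2+, the HFD moved none of the 6 genes past the threshold either, while 15.9% of all genes differed between LowMg-HFD and LowMg-LFD mice. Those 1329 genes became 800 to 866 without LowMg-HFD replicate 1 or 2 or LowMg-LFD replicate 1. For Cav1, Cav2 and Ehd2 the levels of both groups overlapped, with log2 fold changes of 0.03, 0.01 and -0.03, of which those of Cav1 and Cav2 turned to -0.08 and -0.10 when mice were centred on their medians. The 95% interval for Cav1 was -0.19 to 0.26. The cavins Ptrf and Prkcdbp were at 0.41 (SE 0.17, limma adjusted p = 0.101) and 0.41 (SE 0.15, limma adjusted p = 0.0686), and Sdpr at 0.19 (SE 0.13, limma adjusted p = 0.353).

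Single mice decided these 2 cavins. Prkcdbp passed without LowMg-LFD replicate 3 (0.56, adjusted p = 0.00509), the mouse at 199.4 FPKM, or replicate 5 (0.47, adjusted p = 0.0491), and Ptrf passed without LowMg-LFD replicate 2 (0.54, adjusted p = 0.0298), the mouse at 584 FPKM, without LowMg-HFD replicate 4 (0.53, adjusted p = 0.025), or without the 3 mice with RNA of other tissues (0.56, adjusted p = 0.0381). The all-gene median moved by -0.11 with centring and -0.12 with quantile normalization, and the share of calls that were higher went from 78.0% to 52.8% and 50.9%.

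Whether the effect of fat differed between Mg2+ levels was read from the interaction. None of the 6 genes passed, and 1.25% of all genes did, a share that rests on single mice. The 104 genes became 0 without NormMg-LFD replicate 2 or 3, LowMg-LFD replicate 5, NormMg-HFD replicate 1, 3 or 4, or LowMg-HFD replicate 3 or 5, and without the 3 mice with RNA of other tissues. They became 482 without LowMg-HFD replicate 2. The largest value was that of Cav1, 0.41 (SE 0.16, limma adjusted p = 0.148), followed by Ehd2 at 0.30 (SE 0.17, adjusted p = 0.327), Sdpr at 0.24 (SE 0.19, adjusted p = 0.496) and Cav2 at 0.22 (SE 0.13, adjusted p = 0.346). Thus the difference of Cav1 between HFD and LFD at normal Mg2+ was not shown to differ from that at low Mg2+. Quantile normalization was the exception, with a Cav1 interaction of 0.77 (limma adjusted p = 0.0168).

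**Figure D2:**
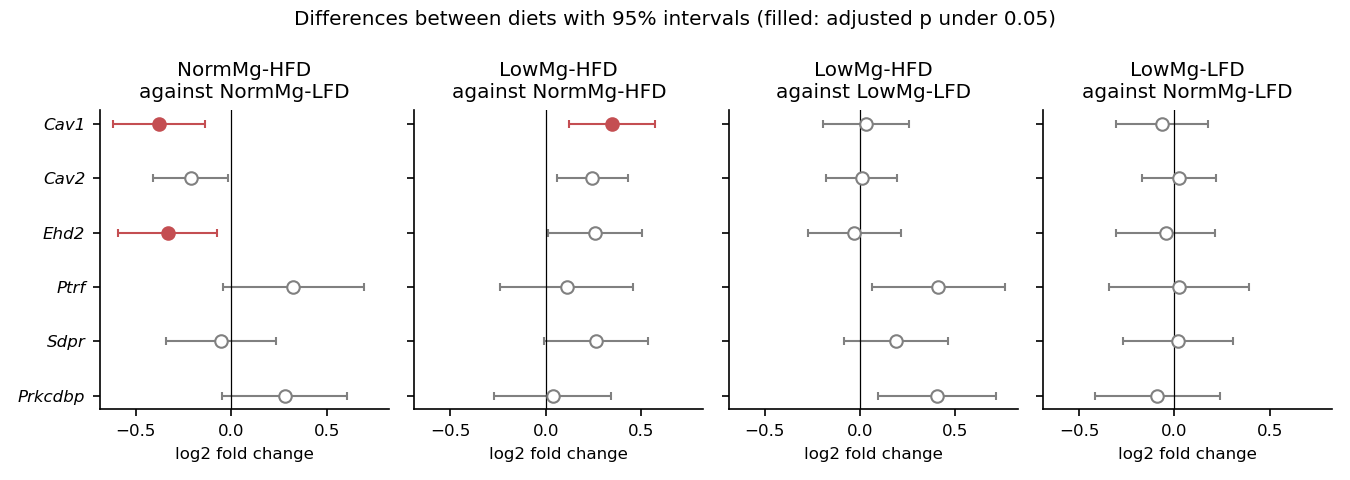
Log2 fold changes of the 6 caveola genes in 4 comparisons of diets, with 95% intervals from limma over 19 mice; filled red points passed an adjusted p of 0.05 and open grey points did not. Cav1 stands at -0.38 and Ehd2 at -0.33 in NormMg-HFD against NormMg-LFD mice, Cav1 stands at 0.35 in LowMg-HFD against NormMg-HFD mice, and no other interval is marked as passing.

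Proportions within a mouse cancel a factor common to all genes of the library, such as that of median centring, but not quantile normalization, which moves genes of different levels unequally. Per 100 FPKM of Cav1 there were 24.1 ± 1.28 (SD, n = 4) FPKM of Cav2 in NormMg-LFD mice, 25.7 ± 2.17 (SD, n = 5) in LowMg-LFD, 27.0 ± 0.697 (SD, n = 5) in NormMg-HFD and 25.2 ± 1.12 (SD, n = 5) in LowMg-HFD mice. Every NormMg-HFD mouse (26.0 to 27.7) exceeded every NormMg-LFD mouse (22.3 to 25.2). On the log2 scale the proportion differed by 0.17 (p = 0.00794 by exact permutation, two-sided, and no smaller p can come from 4 against 5 mice), which over 8 such tests gave an adjusted p of 0.0635, and low Mg2+ on the HFD gave -0.10 (p = 0.0238 by exact permutation, two-sided, adjusted 0.0952). A single p at that floor cannot pass the threshold after adjustment over 8 tests, so that the adjusted value says nothing of the size of the difference, which was 0.32 with quantile normalization.

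Ehd2 was at 21.9 ± 1.13 (SD, n = 4), 22.2 ± 1.12, 22.6 ± 1.59 and 21.3 ± 1.22 (SD, n = 5 each) FPKM per 100 FPKM of Cav1 in NormMg-LFD, LowMg-LFD, NormMg-HFD and LowMg-HFD mice. None of its 4 comparisons passed (exact two-sided permutation tests, adjusted p from 0.402 to 0.722), and differences lay between -0.09 and 0.05 on the log2 scale as deposited. With quantile normalization they lay between -0.17 and 0.21, with 0.20 in NormMg-HFD against NormMg-LFD mice, and none passed.

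By group means, the cavins stood in larger proportion to Cav1 on the HFD, and these 3 proportions were chosen after their values were seen and were not tested. Ptrf was at 31.2 ± 3.98 (SD, n = 4) FPKM per 100 FPKM of Cav1 in NormMg-LFD mice, 34.0 ± 9.43 in LowMg-LFD, 51.0 ± 6.65 in NormMg-HFD and 43.4 ± 6.39 in LowMg-HFD mice (SD, n = 5 each). Each NormMg-HFD mouse, at 43.5 to 59.6, was above each NormMg-LFD mouse, at 26.6 to 36.3. Prkcdbp was at 10.7 ± 0.879 (SD, n = 4) in NormMg-LFD mice and at 10.6 ± 2.09, 16.9 ± 1.49 and 13.6 ± 0.787 (SD, n = 5 each) in LowMg-LFD, NormMg-HFD and LowMg-HFD mice, and NormMg-HFD mice (15.8 to 19.5) lay above each LowMg-HFD mouse (13.1 to 14.9). Sdpr was at 14.3 ± 1.42 (SD, n = 4) in NormMg-LFD mice and at 15.1 ± 1.08, 17.8 ± 0.769 and 16.9 ± 2.00 (SD, n = 5 each) in the other groups, in the same order.

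Taken as shares of the summed FPKM of the 7 genes, Cav1 was 49.5% in NormMg-LFD, 48.2% in LowMg-LFD, 42.5% in NormMg-HFD and 45.4% in LowMg-HFD mice, with SDs of 1.17 to 2.25 percentage points. Ptrf took 15.4%, 16.3%, 21.6% and 19.6% in the same order. The sum itself was 2647 ± 208 (SD, n = 4), 2601 ± 277, 2369 ± 211 and 2832 ± 379 FPKM (SD, n = 5 each) in the same order. Its mean was lowest in NormMg-HFD and highest in LowMg-HFD mice, and the sums were not tested.

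**Figure D3:**
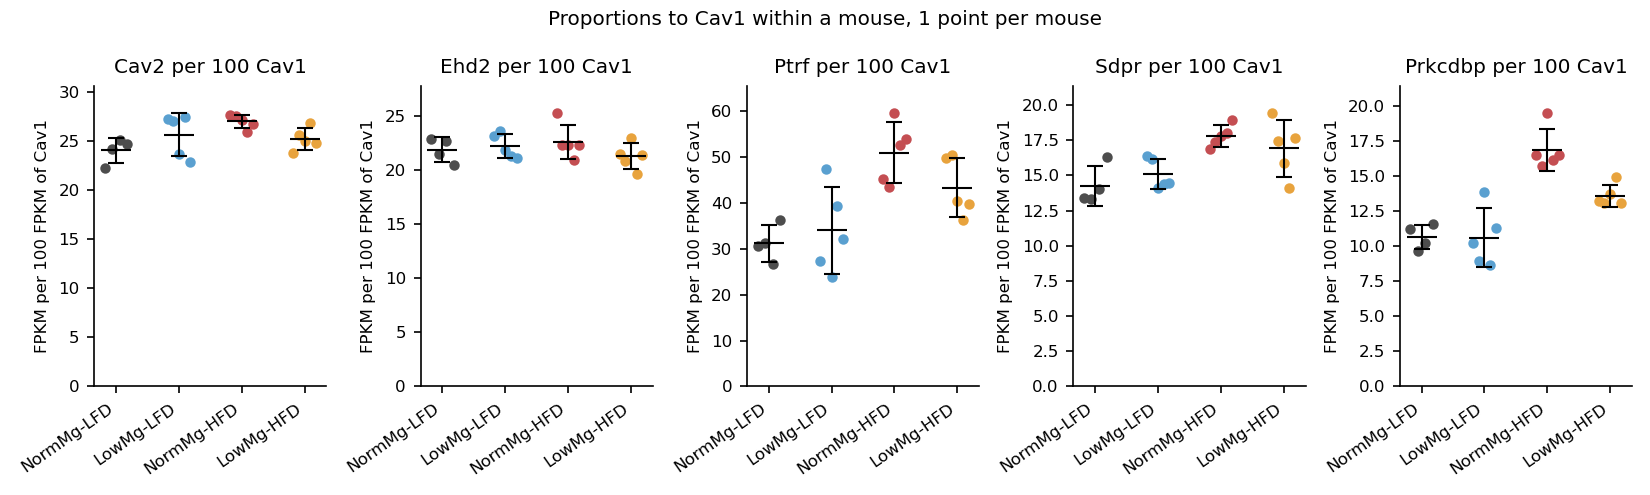
FPKM of 5 caveola genes per 100 FPKM of Cav1 in the same mouse, on axes that start at 0, by diet group; each point is 1 mouse, and the bars give the mean and SD. Group means lie at 24.1 to 27.0 for Cav2, with every NormMg-HFD mouse above every NormMg-LFD mouse, and at 21.3 to 22.6 for Ehd2, while Ptrf goes from 31.2 in NormMg-LFD to 51.0 in NormMg-HFD mice and Prkcdbp from 10.7 to 16.9.

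From mouse to mouse, Cav1, Cav2 and Ehd2 followed each other. Over the 19 mice, Pearson's r of log2(FPKM + 1) was 0.92 for Cav1 with Cav2, 0.93 for Cav1 with Ehd2 and 0.87 for Cav2 with Ehd2, given as descriptions over libraries that fall into 4 diet groups. With the mean of each diet group taken off, r was 0.87, 0.90 and 0.82, so that mice of 1 group varied together in these genes too. By these levels, of all other genes tested Cav1 was the one closest to Cav2 and the one closest to Ehd2.

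Ptrf was nearly unrelated to the caveolins over the mice, with r of 0.05 with Cav1, 0.09 with Cav2 and 0.01 with Ehd2, and 0.39, 0.35 and 0.32 within groups. Sdpr lay between, with r of 0.69 with Cav1 and 0.57 with Ptrf. Prkcdbp had an r of 0.19 with Cav1 over all mice and of 0.74 within groups, which says that it varied with Cav1 among mice on 1 diet while the levels of the diets differed in other ways.

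**Figure D4:**
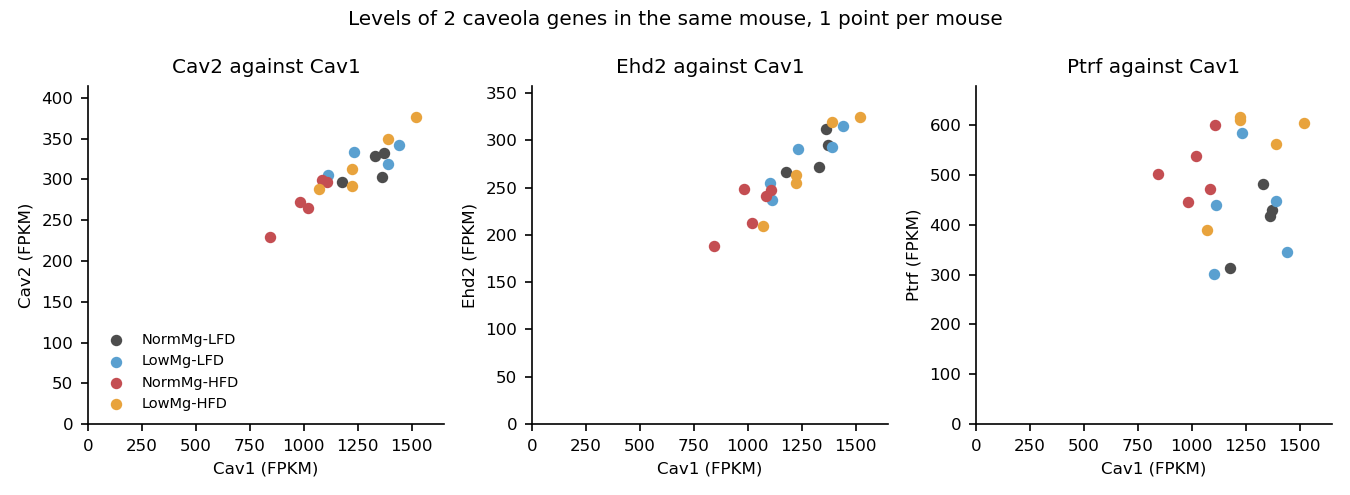
FPKM of Cav2, Ehd2 and Ptrf against FPKM of Cav1 in the same mouse, on axes that start at 0; each point is 1 of 19 mice and colours give the diet group. Cav2 and Ehd2 rise along a line with Cav1 (r of 0.92 and 0.93 on the log2 scale), and Ptrf forms no line (r of 0.05).

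The genes outside the list whose levels were most like those of Cav1 over the 19 mice were Aoc3 (r = 0.94), an amine oxidase of the adipocyte surface, Utrn (0.93), the dystrophin relative that ties actin to the membrane, Cib2 (0.93), Myo1c (0.93), a myosin that carries glucose transporter vesicles, and Atp2b4 (0.92), a plasma membrane calcium pump. For Ehd2 they were Aoc3 (0.91), Utrn (0.90), Gnai1 (0.89), Pcsk6 (0.89) and Tcaf1 (0.88), and for Cav2 they were Glb1l2 (0.89), Nedd4 (0.89), Utrn (0.89), Atp2b4 (0.88) and Klhdc7a (0.88). Within groups, the nearest to Cav1 were Nid1 (0.94), Aoc3 (0.92), Fry (0.92), Tcaf1 (0.91) and Extl3 (0.89), those to Cav2 were Klhdc7a, Atp2b4, Nedd4, Utrn and Abcd2 (0.84 to 0.90), and those to Ehd2 were Aoc3, Abcd2, Mknk2, Fry and Ghr (0.85 to 0.90).

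The cavins had other neighbours. Ptrf was nearest to Adcy5 (0.93), an adenylate cyclase, Synpo2 (0.92), an actin-binding protein, Adgre5 (0.87), Adap2 (0.87) and C1qtnf1 (0.86), and within groups to Adcy5, Synpo2, Heg1, Dram1 and Phldb1 (0.90 to 0.95). Among the genes nearest to Sdpr were Itih5 (0.90), Itga1 (0.88), Pkp2 (0.85) and Syap1 (0.84), and within groups the nearest were Itih5, Negr1, Itga1, Fgfrl1 and Nid1 (0.87 to 0.92). Prkcdbp was nearest to Olfm1 (0.93), Col15a1 (0.90), Tspan17 (0.89), Gamt (0.88) and Ehbp1l1 (0.88), and within groups to Cdsn, Gamt, Bicd2, Phlda3 and Col15a1 (0.91 to 0.95).

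Other proteins work at the same pits. Of 15 genes listed for the neck of the caveola and for membrane remodelling, 10 passed the filter. In NormMg-HFD against NormMg-LFD mice 3 were higher and 1 was lower (median log2 fold change 0.14, against 0.07 over all genes), and 4 of 10 is close to the 37.4% of all genes that differed. The lower one was Pacsin3, a curvature-sensing protein of the caveola neck, at -1.79, with means of 23.5 and 6.08 FPKM. The higher ones were Ehd4, an ATPase related to Ehd2, at 1.46 (21.3 and 59.3 FPKM), Flna, the filamin that ties caveolae to actin, at 0.65 (adjusted p = 0.0024) and Snap23, a fusion protein found at caveolae, at 0.54 (adjusted p = 0.0015).

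In LowMg-HFD against NormMg-HFD mice, 2 of the 10 were higher and 2 lower (median -0.12, against -0.04), beside 18.5% of all genes that differed. Ehd3 was higher at 0.96 (adjusted p = 0.011) and Pacsin3 at 0.95 (adjusted p = 0.0066), while Ehd4 was lower at -0.93 (adjusted p = 0.0039) and Snap23 at -0.33 (adjusted p = 0.0489). At low Mg2+, the HFD went with higher Ehd3 (0.82, adjusted p = 0.029) and Flna (0.70, adjusted p = 0.0032) and lower Pacsin3 (-0.72, adjusted p = 0.0337), and on the LFD low Mg2+ moved none, the most abundant being Flna at 141 and 111 FPKM. The dynamin Dnm2, which cuts pits from the membrane, was at 45.4, 44.1, 46.6 and 46.9 FPKM in NormMg-LFD, LowMg-LFD, NormMg-HFD and LowMg-HFD mice. The flotillins Flot1 and Flot2, which mark membrane domains apart from caveolae, passed in 0 of 5 comparisons, and Flot1 was at 83.2, 71.2, 82.3 and 74.7 FPKM.

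Of 14 signalling proteins that meet caveolae, 11 passed the filter, with 4 higher and 4 lower in NormMg-HFD against NormMg-LFD mice (median -0.17, against 0.07), beside 37.4% of all genes that differed. By size these were led by Prkcd, protein kinase C delta, at 1.53, Slc2a4, the insulin-regulated glucose transporter, at -1.45 (means of 91.5 and 34.1 FPKM), Fyn, a Src family kinase, at 0.85 (adjusted p = 0.0009) and Aoc3 at -0.84 (adjusted p = 0.0005), and Insr, the insulin receptor, was at -0.81. In LowMg-HFD against NormMg-HFD mice 4 were higher and 1 lower (median 0.36, against -0.04, beside 18.5% of all genes that differed): Slc2a4 at 1.07 (adjusted p = 0.0018), Prkcd at -0.67 (adjusted p = 0.0139), Aoc3 at 0.62 (adjusted p = 0.0094), Insr at 0.52 (adjusted p = 0.0089) and Nos3, the endothelial nitric oxide synthase that Cav1 binds, at 0.36 (adjusted p = 0.0345).

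At low Mg2+, where 15.9% of all genes differed, the HFD went with 2 higher, Prkcd (1.10, adjusted p = 0.0009) and Cbl (0.40, adjusted p = 0.0287), and 1 lower, Insr (-0.42, adjusted p = 0.0312). On the LFD low Mg2+ moved none of the 11, and Cd36, the fatty acid transporter and the most abundant of them, was at 1827 and 2042 FPKM. No gene of the 3 lists passed in the interaction.

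Part of the markers of adipocytes and endothelial cells, which carry caveolae, were lower or higher in the same comparisons as Cav1. The counts of markers called are to be read beside the shares of all genes that differed, 37.4% for NormMg-HFD against NormMg-LFD mice, 18.5% for LowMg-HFD against NormMg-HFD mice and 15.9% for LowMg-HFD against LowMg-LFD mice. Of 16 adipocyte markers, 15 were tested, and 9 were lower and 1 higher in NormMg-HFD than in NormMg-LFD mice (median -0.69, against 0.07 over all genes), led by Cfd at -3.80, Retn at -2.16 and Acvr1c at -1.07, with Lep higher at 1.69, while Fabp4 was at 0.04, Cidec at 0.03 and Lpl at -0.04. Their summed level was 22742 to 30257 FPKM in NormMg-LFD, 26036 to 34994 FPKM in LowMg-LFD, 17558 to 23165 FPKM in NormMg-HFD and 22166 to 27062 FPKM in LowMg-HFD mice. In LowMg-HFD against NormMg-HFD mice 8 were higher and none lower (median 0.47), led by Cfd at 2.12 and Retn at 1.33, and in LowMg-HFD against LowMg-LFD mice 1 was higher and 4 were lower (median -0.23). None of the 16 was at 0 in every mouse of a group, and the part of this in the levels of the caveola genes was not tested.

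Of 16 endothelial markers, all tested, 4 were lower in NormMg-HFD than in NormMg-LFD mice (Ptprb, Egfl7, Kdr and Robo4, -0.45 to -0.30) and 5 were higher in LowMg-HFD against NormMg-HFD mice (Kdr, Ptprb, Robo4, Erg and Egfl7, 0.41 to 0.54). The 4 lower markers stand beside 37.4% of all genes that differed and 12.8% that were lower. Summed, the 16 markers ranged from 624 to 700.4 FPKM in NormMg-LFD, from 575 to 704 FPKM in LowMg-LFD, from 543 to 693 FPKM in NormMg-HFD and from 661 to 778 FPKM in LowMg-HFD mice. Pecam1 and Cdh5, which define the cell type, passed in neither, at 0.14 and -0.02 in the first and 0.10 and 0.22 in the second. At low Mg2+ the HFD went with higher Robo4 (0.30, adjusted p = 0.0403) and Cdh5 (0.29, adjusted p = 0.0257). The part of these markers in the result was not tested.

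Macrophage markers went the other way: 15 of 16 were higher in NormMg-HFD than in NormMg-LFD mice (median 2.01), led by Gpnmb at 5.31 and Trem2 at 4.32, and 15 of 16 were lower in LowMg-HFD against NormMg-HFD mice (median -1.21), led by Gpnmb at -2.33 and Trem2 at -2.04. At low Mg2+ the HFD went with 10 higher and none lower (median 0.73). Their summed level was 878 to 1028 FPKM in NormMg-LFD, 686 to 1338 FPKM in LowMg-LFD, 3812 to 6229 FPKM in NormMg-HFD and 1105 to 3447 FPKM in LowMg-HFD mice. Of 9 stromal progenitor and fibroblast markers, 3 were higher in NormMg-HFD mice (Lum at 2.04, Col3a1 at 1.62 and Col1a1 at 1.48) and the same 3, a share near that of all genes in the first comparison, were lower in LowMg-HFD against NormMg-HFD mice (-1.40, -1.31 and -1.22), and higher in LowMg-HFD than in LowMg-LFD mice (0.63, 0.53 and 0.74). Sums were 1146 to 1378 FPKM in NormMg-LFD, 815 to 1324 FPKM in LowMg-LFD, 1678 to 2266 FPKM in NormMg-HFD and 1062 to 1325 FPKM in LowMg-HFD mice.

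**Figure D5:**
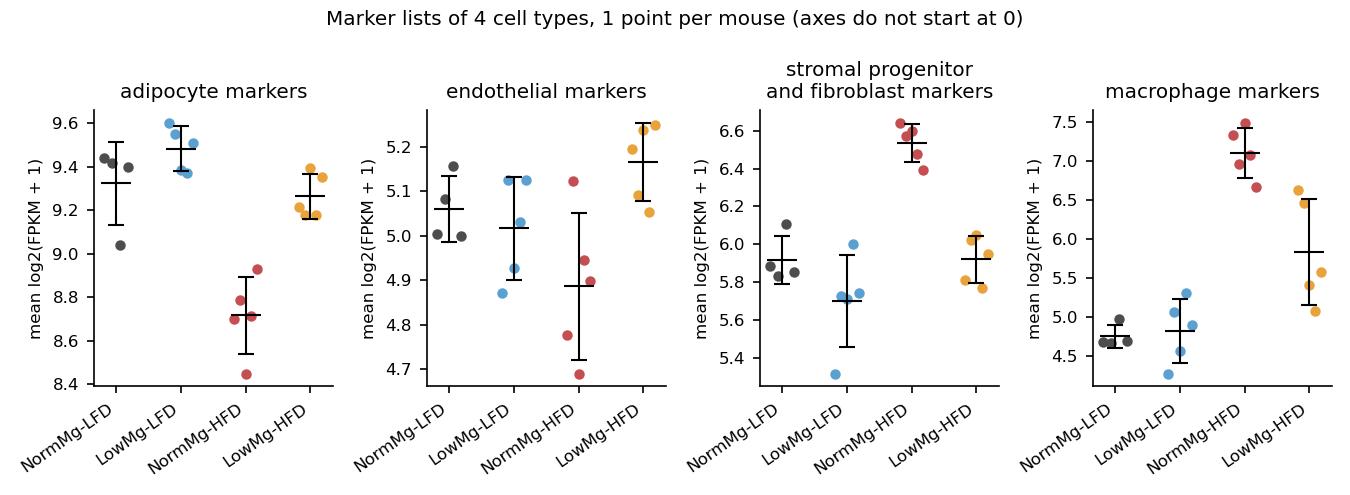
Mean log2(FPKM + 1) over the markers of 4 cell types, by diet group; each point is 1 mouse, the bars give the mean and SD, and the axes do not start at 0. Adipocyte markers are lowest (mean 8.72) and macrophage and stromal markers highest (7.10 and 6.54) in NormMg-HFD mice.

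Over the 19 mice, r with the adipocyte level (the mean log2(FPKM + 1) of its markers) was 0.78 for Cav1, 0.78 for Cav2 and 0.72 for Ehd2, and -0.18 for Ptrf, 0.39 for Sdpr and -0.32 for Prkcdbp. With the group means taken off it was 0.60, 0.65 and 0.59 for the first 3, and 0.37 for Ptrf, 0.59 for Sdpr and 0.25 for Prkcdbp, so that the signs no longer differed. With the macrophage level, r was -0.66 for Cav1 and 0.55 for Ptrf, and within groups -0.24 and 0.42. Of the lists, Ptrf had its highest r with skeletal muscle genes (0.68, and 0.51 within groups), of which 1 of 10 passed the filter on low values. With the endothelial level r was 0.68 for Cav1 and 0.26 for Ptrf. These are descriptions over 19 libraries that share the diet groups, and the part of the makeup of the tissue in the levels of caveola genes was not tested.

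Of 10 smooth muscle and pericyte genes 9 were tested, and the counts called were no more than the shares of all genes. Pdgfrb was higher at 0.47 (adjusted p = 0.0305) and Myh11 and Rgs5 were lower at -1.02 and -0.54 in NormMg-HFD against NormMg-LFD mice, and Cspg4 was lower at -0.61 in LowMg-HFD against NormMg-HFD mice. Acta2 was higher at 0.99 in LowMg-HFD against LowMg-LFD mice, and the list summed to 161 to 334 FPKM. Of 6 mesothelial genes 1 was tested, Krt19, at -1.86 (adjusted p = 0.0028) in the first. Of 10 skeletal muscle genes 1 was tested and passed in none, and their sum was 10.6 to 37.4 FPKM over all mice. Of the 17 exocrine pancreas genes 1 was tested and passed in none, and of the 9 epididymis genes none passed the filter.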

How the data were processed

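RNA from eWAT of 19 male mice was sequenced (50 bp, single-end). The authors mapped reads to the mouse transcriptome (GRCm38, mm10) with HISAT and Bowtie2, and estimated levels with RSEM 1.2.31. The deposited table gives FPKM per gene and mouse, relative to transcript length and mapped reads. A second deposited table gives the count of reads and the percent mapped per mouse, 12986441 to 13027028 reads and 86.12% to 90.41%. Read counts per gene were not used here, so no counting interval can be given.

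Of 24238 genes, 1 held a value that is not a number, and 24237 were used. Lines that did not open with a gene identifier (12) were left out, and 26 symbols that had turned into dates were restored. The 8336 genes that exceeded 8 FPKM in the mean and in 4 mice or more of some group were fitted on log2(FPKM + 1) with limma 3.58.1 (R 4.3.3, intensity trend), all 4 groups in 1 fit, with Benjamini-Hochberg adjustment over these genes within each contrast. The pseudocount of 1 understates changes of low genes. Ratios to Cav1 were compared by exact two-sided permutation tests (Python 3.11.15, NumPy 2.4.6), adjusted over 8 tests. The fit was also run on simulated data with changes of known size. Part of these were missed, more often the smaller ones, so a difference that did not pass is not shown to be absent. No libraries held identical values, and limma p values set a difference against the spread between mice.

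The members and lists were chosen with earlier results of these data known. From each list of other genes, up to 4 genes past the threshold were named by size of change, or the most abundant where none passed, and genes named beyond that rule (Insr and Nos3 as further passing genes, Dnm2, Pecam1, Cdh5, Egfl7, Fabp4, Adipoq, Cidec and Lpl) were chosen after their values were seen. For each caveola gene, the 5 genes of highest Pearson's r over 19 mice were named, except 1 that is not reported here. Alternatives were quantile normalization, median centring, a pseudocount of 0.1, filtering at 1 FPKM, no filter, the compared groups alone, no trend, a replicate block and leaving out each mouse.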

Additional observations from a re-analysis of the deposited data

Results flagged for a closer look

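Ptrf in LowMg-HFD replicate 4 stood far below the other mice of its group, at 388.69 FPKM where they were at 561 to 617 FPKM. On the log2(FPKM + 1) scale, its gap to the nearest was 0.796 of the range of the group. It was the only far sample among 32 combinations of a gene or ratio with a diet group, and since chance gives about 1 in 20, 1 is no more than chance would give. Without this mouse, the log2 fold change of Ptrf in LowMg-HFD against NormMg-HFD mice went from 0.11 to 0.23, and neither passed. This mouse was also the lowest of its group for Cav1, Cav2, Ehd2 and Sdpr, and its epididymis genes summed to 29.3 FPKM. The cause was not tested.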

How the results depend on the processing

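The number of caveola genes past the threshold for low Mg2+ on the HFD was 1, and became 0 with no filter and with the compared groups alone, 2 with median centring, 4 with quantile normalization, 3 without the 3 mice with RNA of other tissues, and 0 to 4 with single mice left out. For the HFD at normal Mg2+ it was 2, and became 0 with no filter, 3 with median centring or quantile normalization (Cav2 added), 3 with the compared groups alone (Prkcdbp added) and 1 to 2 with single mice left out. For the HFD at low Mg2+ it was 0, and became 1 (Prkcdbp) with the replicate block, 1 (Ptrf) without those 3 mice, and 0 to 1 with single mice left out. The interaction gave 1 (Cav1) with quantile normalization. With no filter more genes were tested, and otherwise the cause was not tested. For low Mg2+ on the LFD, 0 passed in limma under every alternative.

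Same-numbered mice of different groups did not vary together (median r of 0.003 over 27 pairs, and 3 of 19 mice were closest to a mouse of their own number), so that the replicate block does not rest on a pairing. Log2 fold changes near 0 turned sign: for low Mg2+ on the LFD, Ehd2 to 0.020 with median centring and 0.025 without the 3 mice, and for the HFD at low Mg2+, Cav1 to -0.078 and Cav2 to -0.10 with median centring, Cav2 to -0.062 with quantile normalization and Ehd2 to 0.0063 without the 3 mice. With single mice left out, values that turned sign ranged, for low Mg2+ on the LFD, from -0.0045 to 0.050 (Cav2), -0.093 to 0.010 (Ehd2), -0.10 to 0.14 (Ptrf), -0.037 to 0.095 (Sdpr) and -0.24 to 0.018 (Prkcdbp), and from -0.011 to 0.043 for Ehd2 to Cav1. For the HFD at low Mg2+ they ranged from -0.031 to 0.095 (Cav1), -0.048 to 0.049 (Cav2), -0.095 to 0.062 (Ehd2) and -0.063 to 0.0019 (Cav2 to Cav1). Prkcdbp on low Mg2+ and HFD ranged from -0.013 to 0.066, Sdpr on the HFD at normal Mg2+ from -0.11 to 0.020, and the Ptrf interaction from -0.027 to 0.21.

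Groups of 4 and 5 mice limit what can be seen, the pseudocount is small beside all tested members, and FPKM of whole tissue do not show which cells a transcript came from.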

Other observations

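A wider list, the 76 genes that carry the Gene Ontology term for the caveola, was added after results were known. Of these, 39 were tested. In NormMg-HFD against NormMg-LFD mice 11 were higher and 8 lower (median log2 fold change 0.10, against 0.07 over all genes), where 37.4% of all genes differed, and in LowMg-HFD against NormMg-HFD mice 5 were higher and 9 lower (median -0.06, against -0.04), where 18.5% of all genes differed. Nothing particular to the list is read from these counts. In LowMg-HFD against LowMg-LFD mice 5 were higher and 1 lower, where 15.9% of all genes differed. The list holds receptors and enzymes found in caveolae beside their structural proteins.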
